A study of Homo sapiens and Mus musculus with 69 samples.

Results

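The genes described here were 10 receptor tyrosine kinases: EGFR, ERBB2, ERBB3, MET, FGFR1, PDGFRA, PDGFRB, KIT, IGF1R and DDR2. They were taken by symbol from the expression tables, and the rule used no threshold on a measured value. All 10 had a row among the 20516 genes of the human table, and 9 had a row under the mouse symbol among the 18501 genes of the mouse table; Igf1r was not analysed here.

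Bulk RNA-Seq was analysed in 69 libraries of small cell lung cancer (SCLC) lines, in 23 groups of 3 libraries each, to ask how NOTCH1 activation, overexpression of the transcriptional repressor REST or inhibition of the histone demethylase LSD1 changed gene expression. Of these, 60 libraries in 20 groups came from H82, H524, H69 and COR-L88, all human, and 9 libraries in 3 groups came from the mouse line KP1, which lacks Rb1 and Trp53. The labels do not say whether libraries of a group came from separate cultures, so P values measure the spread between libraries, which may be technical. In bulk RNA, a change in the share of cells of a type and a change in RNA per cell cannot be told apart.

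H82 cells were parental, or carried a lentiviral vector for the NOTCH1 intracellular domain (N1ICD) driven by a doxycycline-inducible promoter, and were sequenced without and with doxycycline at 1 μg/mL. The same pair of conditions was sequenced in H82 N1ICD cells labelled REST KO and in H82 N1ICD cells labelled STING KO. H524 cells were parental, or carried the inducible N1ICD vector or an inducible REST vector, each without and with doxycycline. H69 cells were parental, or carried the N1ICD vector without and with doxycycline. COR-L88 cells received DMSO, the LSD1 inhibitor TAS1440 at 100 nM, or TAS1440 with the γ-secretase inhibitor BMS-708163 at 2 μM for 28 days, and COR-L88 cells labelled STING KO received DMSO or TAS1440. KP1 cells received DMSO, TAS1440 or TAS1440 with the γ-secretase inhibitor DBZ at 10 μM for more than 28 days. A γ-secretase inhibitor (GSI) blocks the cleavage that releases the Notch intracellular domain. Doxycycline was given for at least 28 days, and according to the methods only adherent cells were then collected, so that induction and selection by adherence cannot be told apart. The study shows single-cell clones of the KO lines, and how many of them entered RNA-Seq was not given in the sources used here, and the N1ICD lines without doxycycline differ from the parental lines by the vector and its selection.

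Receptor tyrosine kinases sit in the cell membrane, bind a growth factor outside the cell and phosphorylate each other on tyrosines inside it, which recruits adaptors and starts the RAS-MAPK and PI3K cascades. EGFR, ERBB2 and ERBB3 form one family and work as pairs, ERBB2 having no known ligand and ERBB3 a weak kinase. PDGFRA, PDGFRB and KIT are related receptors for platelet-derived growth factors and stem cell factor, and DDR2 is unusual in that its ligand is fibrillar collagen. SCLC of the neuroendocrine type often grows as floating clusters, and KIT has long been known as a receptor that such tumors may express.

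All values are on the deposited log2 scale, read as log2(RPKM + 1) because the lowest value in the tables is exactly 0, and this scale understates changes of genes near 0. The relative size of the libraries, read from the smallest steps in the tables, was 0.698 to 1.52 times the median in the human table and 0.872 to 1.07 in the KP1 table, and the absolute depth is unknown. NOTCH1 rose with doxycycline in the 5 comparisons of N1ICD cells by 3.70 to 8.23 on the log2 scale, without separation of vector and endogenous transcripts, and REST rose by 4.01 in H524 REST cells. REST in the libraries labelled REST KO was lower than in N1ICD cells with doxycycline, by a log2 difference of -1.05. TMEM173, the gene of STING, had log2 values of 1.27 to 2.04 in the H82 libraries labelled STING KO with doxycycline. It had 1.07 to 1.17 in N1ICD cells with doxycycline, so the RNA level does not show the KO in H82. In COR-L88 with TAS1440 it was lower with the label, at 0.96 to 1.16 against 2.03 to 2.54 without it. The 8 neuroendocrine markers had a summed level of 13.08 to 14.43 in H82 N1ICD cells without doxycycline and of 4.70 to 5.67 with it. The same sum was 10.21 to 11.12 and 3.84 to 3.93 in H69 and 13.59 to 14.66 and 9.30 to 10.58 in H524. Their part in the results below was not tested.

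Levels of the 10 receptors differed widely between the human lines. DDR2 and IGF1R were the members with a group mean of at least 1 in all 20 human groups. DDR2 ranged from 1.62 in COR-L88 with TAS1440 to 11.28 in H69 with N1ICD, where it stood at the 99.5th percentile of all genes. PDGFRA had no group mean above 0.59, and ERBB2 ranged from 0.33 to 1.22. KIT had group means of 4.13 to 4.91 in COR-L88 and of 3.72 and 3.93 in H69 parental cells and H69 N1ICD cells without doxycycline, and its mean was 2.08 or lower in every H82 and H524 group. DDR2 thus had the highest mean of the members in every H82 and H69 group and in every H524 group other than uninduced N1ICD cells, where IGF1R stood at 5.82 against 5.35. In COR-L88, KIT and ERBB3 had higher means than DDR2 in all 5 groups.

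**Figure D1:**
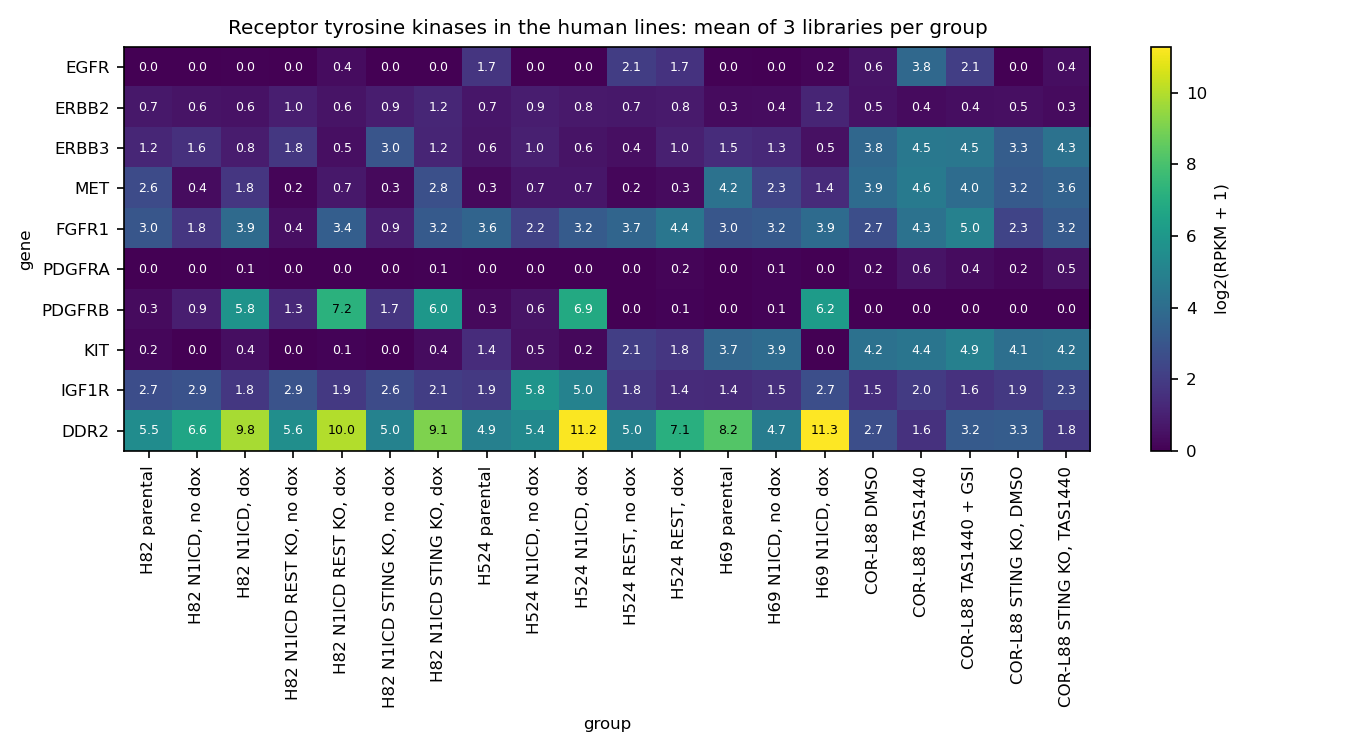
Mean log2(RPKM + 1) of the 10 receptors (vertical axis) in the 20 groups of human libraries (horizontal axis), each the mean of 3 libraries, with color and printed number giving the level. PDGFRB was above 5 only in the 5 groups with induced N1ICD, and the COR-L88 groups held the highest levels of ERBB3 and KIT.

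Groups were compared over all expressed genes, and a gene was called where its adjusted P was below 0.05 and its log2 fold change was 1 or more in either direction. With N1ICD, 5 of the 7 members tested in H82 were called, 4 higher and 1 lower, beside 27.1% of all genes tested. In H82 cells labelled REST KO, 4 of 7 were called, 3 higher and 1 lower, beside 29.9%, and in H82 cells labelled STING KO, 5 of 7, 4 higher and 1 lower, beside 20.2%. In H524, 3 of 7 were called with N1ICD, all higher, beside 18.6%, and 1 of 7 with REST, higher, beside 1.87%. In H69, 4 of 8 were called with N1ICD, 3 higher and 1 lower, beside 41.8%. With TAS1440, 3 of 7 were called in COR-L88, 2 higher and 1 lower, beside 22.8%. In COR-L88 cells labelled STING KO, 1 of 7 was called with TAS1440, lower, beside 16%. In KP1, 3 of the 7 mouse members tested were called with TAS1440, all higher, beside 18.8%. PDGFRB in H524 and H69, and Pdgfrb and Erbb2 in KP1, passed the filter only through the 3 libraries in which they were high. EGFR in COR-L88 passed it only through the libraries without a KO label that received TAS1440, alone or with GSI. The counts of members called therefore describe these genes and support nothing further. In H69 and in COR-L88 labelled STING KO the share of members called was near that of all genes.

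**Figure D2:**
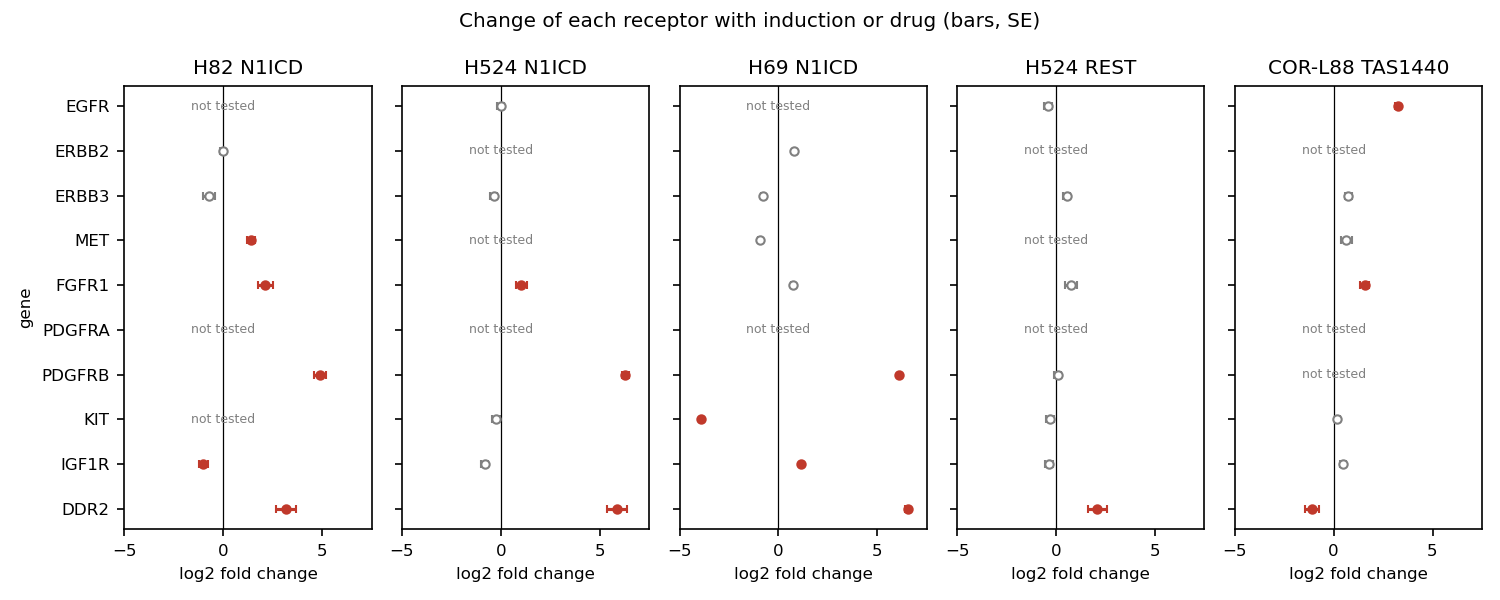
Log2 fold change (horizontal axis) with its SE (bars) of each receptor (vertical axis) with induction of N1ICD in H82, H524 and H69, of REST in H524, and with TAS1440 in COR-L88. Filled points passed the threshold, and PDGFRB and DDR2 were the only receptors above 3 in all 3 N1ICD panels.

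PDGFRB, the receptor for PDGF-B and PDGF-D that marks pericytes and fibroblasts in normal tissue, rose from 1.18 or lower in the N1ICD cells of all 3 lines. In H82 N1ICD cells it stood at 0.52, 1.18 and 1.09 in the uninduced libraries and at 5.76, 5.26 and 6.38 in the induced ones. The corresponding values were 0.09, 0.89 and 0.76 against 6.84, 6.96 and 6.80 in H524, and 0.17, 0.10 and 0.07 against 6.27, 6.20 and 6.15 in H69. Every induced library was thus far above every uninduced one in all 3 lines. The log2 fold changes were 4.87 (SE 0.30, adjusted P = 4.06e-10), 6.29 (SE 0.18, adjusted P = 8.94e-12) and 6.09 (SE 0.059, adjusted P = 1.70e-11). In H524 and H69 the 3 induced libraries alone carried PDGFRB past the filter, so these P values are not independent of the change. With no filter, where every gene was tested, the adjusted P was 7.47e-11 in H524 and 1.28e-10 in H69. By contrast, PDGFRB remained at 0.21, 0.10 and 0.04 in H524 cells with REST, and in COR-L88 it was at 0.01 or lower in all 15 libraries. In H524 the response to N1ICD exceeded the response to REST by 6.20 on the log2 scale (SE 0.25, adjusted P = 1.02e-09). The induced N1ICD libraries alone carried PDGFRB into this test too, so its P value is not independent of the difference.

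In the H82 libraries labelled REST KO, PDGFRB was 1.28, 1.34 and 1.28 without doxycycline and 7.35, 7.62 and 6.56 with it. Each of these induced libraries was above each induced N1ICD library without the KO, by a mean log2 difference of 1.38 (SE 0.30, adjusted P = 0.00156). NOTCH1 was higher in them as well, by 4.69 on the log2 scale, and its part in the PDGFRB difference was not tested. In those labelled STING KO the values were 2.15, 1.78 and 1.30 without and 5.68, 5.89 and 6.36 with doxycycline, and the induced libraries overlapped those of N1ICD cells without the KO. The fold changes with doxycycline were 5.88 (SE 0.30) and 4.24 (SE 0.30). Neither differed from the fold change in H82 N1ICD cells past the threshold.

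DDR2, the receptor for fibrillar collagen, was already present before induction and rose further. In H82 N1ICD cells it stood at 5.93, 7.08 and 6.92 in the uninduced and 10.32, 9.31 and 9.82 in the induced libraries, with a log2 fold change of 3.17 (SE 0.49, adjusted P = 3.52e-05). In H524 they were 4.19, 6.50 and 5.36 against 10.95, 11.36 and 11.34, a log2 fold change of 5.86 (SE 0.50, adjusted P = 6.70e-07). In H69 they were 5.02, 4.81 and 4.42 against 11.30, 11.26 and 11.26, a log2 fold change of 6.53 (SE 0.14, adjusted P = 9.83e-10). The groups did not overlap in any of the 3 lines.

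The uninduced H69 N1ICD cells differed from the parental line. DDR2 was 8.14, 8.34 and 8.27 in parental H69 and fell by 3.50 on the log2 scale in the uninduced vector cells (SE 0.14, adjusted P = 1.13e-06). The induced cells had a mean of 11.28 against 8.25 in parental cells, a difference that was not tested.

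DDR2 was also the single member called with REST in H524, with 5.43, 4.94 and 4.66 without and 7.23, 6.29 and 7.77 with doxycycline. The groups did not overlap, and the log2 fold change was 2.09 (SE 0.50, adjusted P = 0.0402). This call was lost in 5 of the 6 fits without 1 of these libraries, where the adjusted P was 0.0616 without library 34, 0.139 without library 35, 0.156 without library 36, 0.0862 without library 37 and 0.196 without library 39. N1ICD raised DDR2 by 3.78 more than REST did on the log2 scale (SE 0.70, adjusted P = 0.00165). NOTCH1 also rose in H524 REST cells with doxycycline, by 1.38 (SE 0.27, adjusted P = 0.0144), and its part in the DDR2 rise was not tested. Of the induced REST libraries, library 38 had the highest REST, 10.72, and the lowest DDR2, 6.29.

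In the H82 libraries labelled REST KO, DDR2 was 5.54, 5.49 and 5.69 without and 10.67, 10.67 and 8.61 with doxycycline. In those labelled STING KO it was 5.24, 4.68 and 5.11 without and 9.80, 8.39 and 9.05 with doxycycline. Induced and uninduced libraries did not overlap in either, and the log2 fold changes were 4.41 (SE 0.49, adjusted P = 6.10e-07) and 4.07 (SE 0.49, adjusted P = 3.12e-06). Without doxycycline the libraries labelled STING KO were lower than N1ICD cells by a log2 difference of -1.63 (SE 0.49, adjusted P = 0.0154), a call lost without library 5, 6 or 56 (adjusted P of 0.0647, 0.0534 and 0.0605).

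COR-L88 went the other way. DDR2 had 2.14, 3.19 and 2.79 with DMSO, 1.03, 2.03 and 1.80 with TAS1440 and 3.37, 2.99 and 3.17 with TAS1440 and GSI. Every TAS1440 library was below every library of the other conditions, and the changes were a fall by 1.09 with TAS1440 (SE 0.34, adjusted P = 0.0137) and a rise of 1.55 when GSI was added (SE 0.34, adjusted P = 0.00205). The fall was not called without library 11 (adjusted P = 0.0674) or library 13 (adjusted P = 0.0679). In the libraries labelled STING KO, DDR2 fell from 3.64, 2.93 and 3.20 to 2.03, 2.26 and 1.13, by 1.45 on the log2 scale (SE 0.34, adjusted P = 0.0033).

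**Figure D3:**
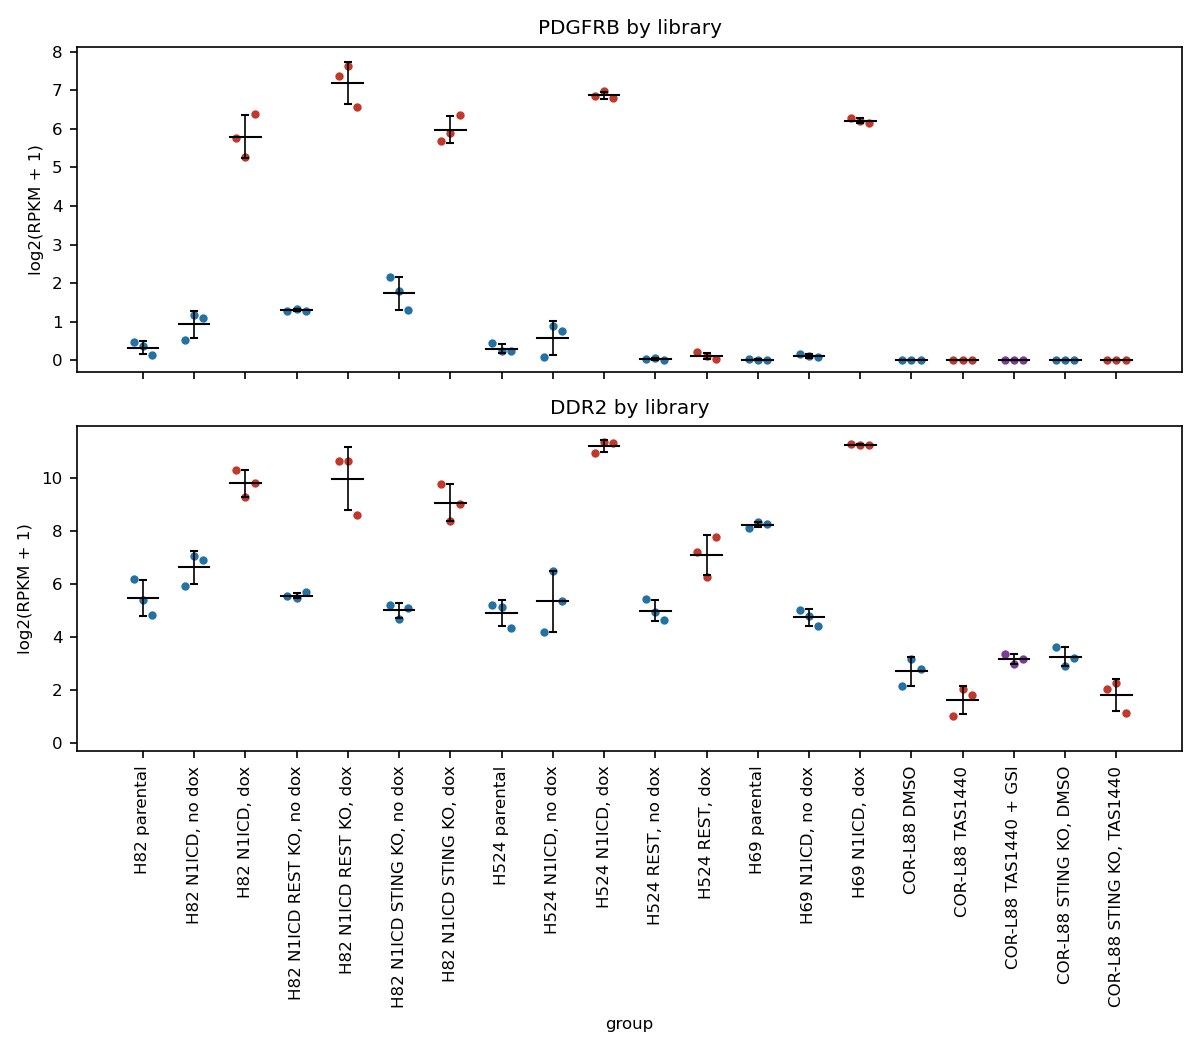
Log2(RPKM + 1) of PDGFRB (top) and DDR2 (bottom) in each library (points), with the mean and SD of the 3 libraries (black), for the 20 human groups on the horizontal axis; red marks doxycycline or TAS1440, purple TAS1440 with GSI and blue the other groups. The induced N1ICD groups of H82, H524 and H69 stand at 5.26 to 7.62 for PDGFRB and at 8.39 to 11.36 for DDR2.

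The promoters of these genes are shown because the 2 receptors rose together in N1ICD cells, whereas EGFR, described below, rose in COR-L88. The sequences are from RefSeq (GRCh38.p14 table) and are given as the bases before a listed transcription start, with the position of their only match in GRCh37. They were searched on both strands for the letters TGGGAA, the core bound by the Notch partner RBPJ, TGANTCA, the AP-1 motif, and GGAATG, the TEAD core, which are in capitals (also as their reverse complement). PDGFRB spans 149493402 to 149535435 of chromosome 5 on the minus strand, next to CSF1R at 149432854 to 149492935, and its window is chr5:149535409-149535658. DDR2 spans 162601163 to 162757195 of chromosome 1 on the plus strand, and the window of 1 of its 3 listed starts, which lies within the annotated gene, is chr1:162601515-162601764. EGFR spans 55086710 to 55279321 of chromosome 7 on the plus strand, and the bases up to the annotated exon of its second listed start, also within the gene, are chr7:55177282-55177415.
PDGFRB: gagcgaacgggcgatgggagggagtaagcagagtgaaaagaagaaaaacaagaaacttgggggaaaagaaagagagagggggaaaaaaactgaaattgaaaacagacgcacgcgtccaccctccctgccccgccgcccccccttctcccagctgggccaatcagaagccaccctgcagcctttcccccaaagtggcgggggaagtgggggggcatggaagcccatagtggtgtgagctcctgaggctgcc
DDR2: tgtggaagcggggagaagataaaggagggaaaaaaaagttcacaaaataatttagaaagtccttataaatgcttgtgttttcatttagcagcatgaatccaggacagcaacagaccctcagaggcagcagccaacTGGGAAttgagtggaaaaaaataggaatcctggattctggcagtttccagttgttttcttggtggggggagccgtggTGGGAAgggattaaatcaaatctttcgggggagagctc
EGFR: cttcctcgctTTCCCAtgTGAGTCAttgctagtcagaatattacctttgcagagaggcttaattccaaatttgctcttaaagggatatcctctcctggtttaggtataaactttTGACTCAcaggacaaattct
The DDR2 and EGFR windows were picked among the listed ones after the motif search. The first EGFR window, at the gene's start, held none of the motifs and 25 CG pairs, and of the other DDR2 windows the first held none and the third held TGGGAA 1 time. The PDGFRB window held none of the 3 motifs, the DDR2 window held TGGGAA 2 times, and the 134 EGFR bases held TGGGAA 1 time and TGANTCA 2 times. The full EGFR window of 250 bases also held GGAATG 1 time, past the printed bases. Among all 35116 promoter windows of 250 bases, 20.8% held TGGGAA, 6.57% TGANTCA and 11.9% GGAATG. The PDGFRB window had 9 CG pairs and the DDR2 window 3, with a median of 11 over all windows, against 48 for IGF1R and 34 for KIT. A match describes letters only. Of the printed bases, 27 of PDGFRB and 29 of DDR2 lie within an annotated exon. ERBB3 and FGFR1 were not matched in the table.

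EGFR, the receptor for EGF, TGF-α and amphiregulin, was the member that TAS1440 raised most in COR-L88. Its log2 values were 0.61, 0.64 and 0.53 with DMSO and 3.82, 4.09 and 3.57 with TAS1440, without overlap. The log2 fold change was 3.23 (SE 0.13, adjusted P = 6.70e-10). EGFR passed the filter in COR-L88 only through the libraries without a KO label given TAS1440, alone or with GSI. The P values of EGFR in this line are thus not independent of the change. With GSI added, EGFR was 2.04, 2.03 and 2.16, between the other conditions, lower than with TAS1440 alone by a log2 difference of -1.75 (SE 0.13, adjusted P = 7.94e-07) and higher than with DMSO by 1.48 (SE 0.13, adjusted P = 1.51e-06).

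In the COR-L88 libraries labelled STING KO, EGFR was at 0.03, 0.04 and 0.03 with DMSO and at 0.41, 0.56 and 0.27 with TAS1440. All of these TAS1440 libraries were below those without the KO label, by a log2 difference of -3.41 (SE 0.13, adjusted P = 2.09e-09). The response to TAS1440 was 0.38 (SE 0.13) in them, which differed by -2.85 from that in the cells without the label (SE 0.18, adjusted P = 2.87e-06). The baseline was lower as well, at means of 0.03 and 0.59, a difference below the fold threshold. Because this scale understates changes near 0, the test of the responses cannot tell a smaller response from a lower baseline. With TAS1440, NOTCH1 was higher in the libraries labelled STING KO than without the label, by 1.76 (SE 0.39, adjusted P = 0.00524). Its part in the EGFR differences was not tested.

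In the H524 line, EGFR differed between the vector lines. It was 1.99, 1.62 and 1.55 in parental cells, 2.24, 2.00 and 1.97 in uninduced REST cells and 1.99, 1.23 and 1.76 in induced REST cells, but 0.04, 0.01 and 0.04 in uninduced and 0.02, 0.02 and 0 in induced N1ICD cells. The fall by 1.69 from parental to uninduced N1ICD cells (SE 0.18, adjusted P = 4.75e-05) came before any doxycycline, and with doxycycline EGFR changed by -0.01 (SE 0.18). In H82 and H69 EGFR was under the filter and not tested, and its highest library was 0.66, in H82 cells labelled REST KO with doxycycline.

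ERBB2, the partner of the other ERBB receptors, was low throughout, and no human comparison called it. In H69 it went from 0.37, 0.31 and 0.44 to 1.17, 1.16 and 1.19 with N1ICD, a log2 fold change of 0.80 that did not reach the size required, and it passed the filter there only through the induced libraries. ERBB3, the neuregulin receptor, was called lower with N1ICD only in the H82 libraries with a KO label. It fell from 1.64, 1.76 and 2.06 to 0.34, 0.53 and 0.56 in those labelled REST KO, by 1.34 on the log2 scale (SE 0.29, adjusted P = 0.000942). In those labelled STING KO it fell from 2.92, 3.15 and 2.90 to 0.62, 1.91 and 0.99, by 1.81 (SE 0.29, adjusted P = 8.80e-05). Without a KO label the values were 1.05, 1.84 and 1.77 against 0.84, 0.81 and 0.90, a difference of -0.71 that was not called (adjusted P = 0.0538), and the difference between responses was not called either. Before induction ERBB3 was higher in the libraries labelled STING KO than in N1ICD cells by 1.44 (SE 0.29, adjusted P = 0.00119). In H69 its log2 fold change with N1ICD was -0.80 (SE 0.10, adjusted P = 9.63e-05), without overlap but under the size required. In H524 it was -0.36, with overlap. With TAS1440, ERBB3 had 0.74 in COR-L88 and 0.94 in COR-L88 labelled STING KO. In KP1, Erbb3 had -0.74 with TAS1440 and 0.93 when GSI was added. None of these was called.

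MET, the receptor for hepatocyte growth factor, had responses of opposite sign in H82 and H69. In H82 it was 2.27, 2.74 and 2.65 in parental cells, 0.34, 0.31 and 0.45 in uninduced and 1.99, 1.63 and 1.70 in induced N1ICD cells. It had fallen by 2.19 with the vector (SE 0.20, adjusted P = 3.50e-07) and rose by 1.40 with doxycycline (SE 0.20, adjusted P = 1.10e-05), so that induced cells remained below parental ones. In H69 it was 4.19, 4.29 and 4.22 in parental cells, 2.37, 2.32 and 2.29 in uninduced and 1.28, 1.42 and 1.40 in induced N1ICD cells. There, it had fallen by 1.91 with the vector (SE 0.065, adjusted P = 5.52e-07), and the further change of -0.96 with doxycycline (SE 0.065, adjusted P = 1.24e-06) was under the size required. The response of H69 differed from that of H82 by -2.36 on the log2 scale (SE 0.30, adjusted P = 3.42e-09), and that of H524, where MET stayed at 1.02 or lower, differed from it by -1.43 (SE 0.30, adjusted P = 0.000158).

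The H82 KO labels also went with MET. With doxycycline it was 0.97, 0.69 and 0.54 in libraries labelled REST KO, below N1ICD cells by a log2 difference of -1.04 (SE 0.20, adjusted P = 0.000478), and 2.92, 3.14 and 2.25 in those labelled STING KO. The first call was lost on size without library 7 or 33, at -0.93 and -0.94. From 0.28, 0.36 and 0.20 the libraries labelled STING KO rose by 2.49 (SE 0.20, adjusted P = 1.51e-08), which was 1.08 more than in N1ICD cells (SE 0.28, adjusted P = 0.0197), a call lost without library 6 (adjusted P = 0.0502) or library 59 (adjusted P = 0.0553). NOTCH1 was higher by 2.10 in these induced libraries than in induced N1ICD cells, and its part in the difference was not tested. In COR-L88, MET was 4.05, 3.88 and 3.87 with DMSO and 5.18, 4.69 and 3.89 with TAS1440, which was not called (0.65, adjusted P = 0.0468).

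Genes beside MET rose with it in H82. MET spans 116312250 to 116438431 of chromosome 7 (GRCh37), and of the 5 tested genes within 1 Mb, 4 were called higher with N1ICD. These were TES with a log2 fold change of 4.69, CAV2 with 3.78, CAV1 with 3.26 and ST7 with 1.81, whereas CAPZA2, the nearest, had 0.71. MET and these neighbours did not always move together. With doxycycline, MET was lower in libraries labelled REST KO than in N1ICD cells, while 3 of the 5 were called higher and 1 lower. Of the tested neighbours of FGFR1, PDGFRB, IGF1R and DDR2, 8 of 16, 4 of 24, 1 of 6 and 3 of 12 were called in the direction of the member. In the other direction 0, 1, 1 and 2 were called. Over all 13903 genes tested, 2044 were called higher and 1726 lower, so the counts for PDGFRB and IGF1R were near the share of all genes. These neighbours were named after their values were seen, and the cause was not tested.

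FGFR1, a receptor for fibroblast growth factors, rose in H82 from 1.08, 1.96 and 2.30 to 4.25, 3.56 and 3.92 with N1ICD, without overlap (log2 fold change 2.13, SE 0.39, adjusted P = 0.000193). In H524 it went from 1.78, 3.00 and 1.85 to 3.20, 3.27 and 3.27, a log2 fold change of 1.03 (SE 0.29, adjusted P = 0.0154). That call was lost without library 22 (adjusted P = 0.0620) or library 24 (adjusted P = 0.0697), and with only the compared groups in the model. In H69 the change from 3.39, 3.12 and 3.10 to 3.97, 3.87 and 3.94 was 0.72 (SE 0.086, adjusted P = 5.30e-05), under the size required. FGFR1 was thus higher in every induced than in every uninduced N1ICD library of these lines, at induced means of 3.25 to 3.93 in cells without a KO label. Against parental cells, the induced libraries were all lower in H524, overlapped in H82 and were all higher in H69. Differences between induced and parental cells were not tested.

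In H82 and H524 the uninduced vector cells had a lower FGFR1 mean than parental cells. In H524, FGFR1 was 3.76, 3.52 and 3.56 in parental cells, and in uninduced N1ICD cells it differed from them by -1.40 on the log2 scale (SE 0.29, adjusted P = 0.00408), a call lost with only the compared groups in the model (adjusted P = 0.0835), and it was 4.00, 4.90 and 4.37 in induced REST cells. In H82 the parental values were 2.30, 4.10 and 2.63, which overlapped those of uninduced N1ICD cells, and the fall by 1.23 (SE 0.39, adjusted P = 0.0429) was not called without library 2, 3, 4 or 5. Uninduced libraries labelled REST KO had 0.28, 0.31 and 0.74, and rose by 2.94 with doxycycline (SE 0.39, adjusted P = 5.26e-06) to 3.17, 3.55 and 3.42. Their baseline was lower than that of N1ICD cells by a log2 difference of -1.33 (SE 0.39, adjusted P = 0.0274), a call lost without library 5, 6, 28 or 29. Those labelled STING KO rose from 0.92, 1.14 and 0.73 to 2.54, 3.46 and 3.55, by 2.26 (SE 0.39, adjusted P = 0.000162).

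In COR-L88, FGFR1 was 3.13, 2.47 and 2.48 with DMSO, 4.24, 4.36 and 4.19 with TAS1440 and 5.28, 4.91 and 4.70 with GSI added. It rose by 1.57 with TAS1440 (SE 0.24, adjusted P = 8.97e-05), and with both drugs was above DMSO by 2.27 (SE 0.24, adjusted P = 1.08e-05). Unlike EGFR, it was not lower when GSI was added. In libraries labelled STING KO with TAS1440 it was 3.09, 3.62 and 2.85, below those without the label by a log2 difference of -1.08 (SE 0.24, adjusted P = 0.00582), which was not called without library 45 (-0.91).

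KIT, the stem cell factor receptor, fell to near 0 in H69 with N1ICD. Its log2 values were 3.78, 3.80 and 3.58 in parental cells, 4.02, 3.92 and 3.85 in uninduced N1ICD cells and 0.04, 0 and 0.04 in induced cells. KIT fell by 3.91 on the log2 scale (SE 0.078, adjusted P = 7.78e-10), to a level at or near 0 in each induced library. In H524 it was 0.82, 0.46 and 0.20 without and 0.55, 0.04 and 0.15 with doxycycline, which overlapped, and the response of H69 differed from that of H524 by -3.66 (SE 0.20, adjusted P = 6.58e-20) and from that of H82, where KIT was at 0.52 or lower in N1ICD cells, by -4.28 (SE 0.20, adjusted P = 1.93e-22). Before induction the mean was 3.93 in H69, 0.49 in H524 and 0.025 in H82. In H82 N1ICD cells KIT was 0.02, 0.04 and 0.01 without and 0.28, 0.52 and 0.40 with doxycycline, a small rise without overlap but under the filter. With a floor of 0, KIT had no room for a like fall in H524 or H82. These tests therefore cannot tell a different response from a different baseline. In COR-L88 KIT was high in all 15 libraries, from 4.06 to 5.11, and was called in no comparison.

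IGF1R, the receptor for insulin-like growth factors, fell in H82 and rose in H69. In H82 it went from 2.36, 3.00 and 3.22 to 2.25, 1.31 and 1.98 with N1ICD, by -1.01 on the log2 scale (SE 0.22, adjusted P = 0.00103), a call lost on size without library 5 (-0.94), library 6 (-0.84) or library 8 (-0.75). In H69 it went from 1.53, 1.62 and 1.45 to 2.70, 2.67 and 2.73, by 1.16 (SE 0.081, adjusted P = 1.55e-06). Neither pair of groups overlapped. The response of H69 exceeded that of H82 by 2.18 (SE 0.25, adjusted P = 7.01e-10) and that of H524 by 1.99 (SE 0.25, adjusted P = 9.06e-09).

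In the H524 N1ICD line, IGF1R stood far above the other H524 groups before doxycycline. It was 2.08, 1.63 and 1.94 in parental cells, 1.80, 1.78 and 1.73 in uninduced REST cells and 1.39, 1.36 and 1.45 in induced REST cells, against 5.34, 6.19 and 5.94 in uninduced and 4.89, 5.04 and 5.07 in induced N1ICD cells. The uninduced N1ICD cells exceeded parental cells by 3.94 on the log2 scale (SE 0.19, adjusted P = 5.61e-08), and doxycycline changed IGF1R by -0.82 (SE 0.19, adjusted P = 0.00495).

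Genes beside IGF1R were higher in the same cells. IGF1R spans 99191768 to 99507759 of chromosome 15 (GRCh37), and of 8 tested genes within 1 Mb, 4 were called higher in uninduced N1ICD than in parental H524 cells. They begin after its end, SYNM at 131 kb with a log2 fold change of 3.63 (adjusted P = 0.000128), TTC23 at 169 kb with 3.09 (adjusted P = 0.000374), LRRC28 at 284 kb with 3.84 (adjusted P = 0.00184) and the pseudogene HSP90B2P, inside LRRC28 at 290 kb, with 2.46 (adjusted P = 0.0018). MEF2A, at 598 kb, had 0.54, LYSMD4, at 748 kb, 0.28, and before the start ARRDC4, at 675 kb, had -0.32 and LINC00923, at 773 kb, -0.05. None of these 4 was called. Over all 13648 genes tested in this comparison, 674 were called higher and 977 lower. In the H524 REST cells the 4 neighbours had means close to parental cells, as for TTC23 with 0.50 in parental, 0.39 in uninduced REST and 3.59 in uninduced N1ICD cells. These neighbours were chosen after their values were seen, and neither copy number nor any other cause was tested.

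**Figure D4:**
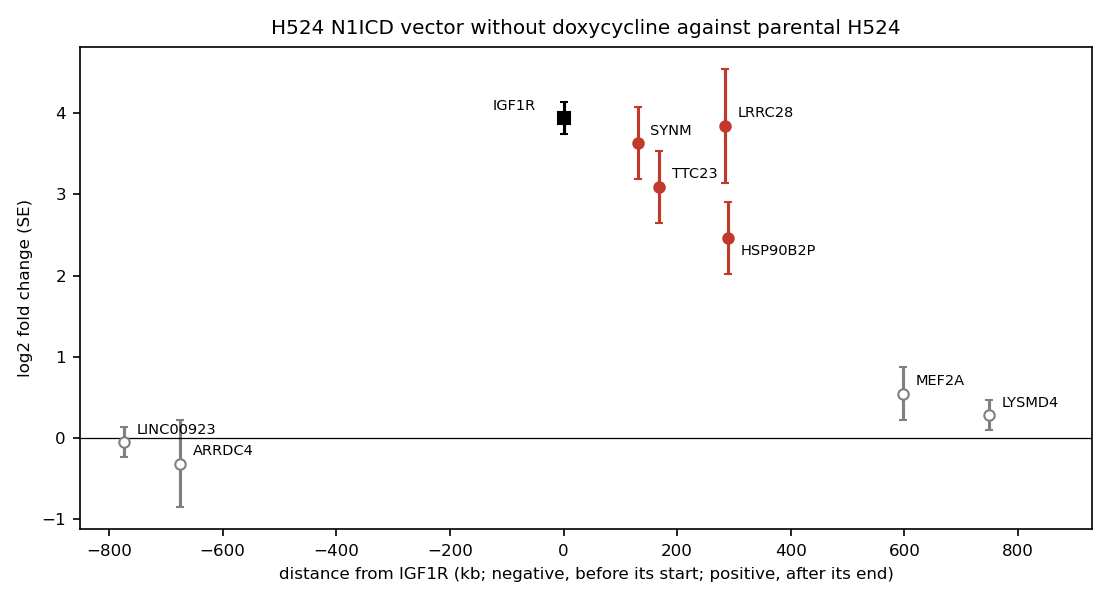
Log2 fold change (vertical axis, bars SE) of uninduced H524 N1ICD cells against parental H524 cells for IGF1R (square) and the 8 tested genes within 1 Mb, by distance from IGF1R in kb (horizontal axis). The 4 filled points nearest to its end passed the threshold at 2.46 to 3.84, and the 4 open points beyond lie between -0.32 and 0.54.

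PDGFRA, the other PDGF receptor, lies at 55095447 to 55164412 of chromosome 4 (GRCh37), upstream of KIT at 55523434 to 55606949 and of KDR at 55944648 to 55991762. It was under the filter in all human lines, with a highest library of 0.67 in COR-L88 with TAS1440, so that PDGFRB alone of the PDGF receptors was detected at a level above 1. In KP1 Pdgfra was present, as described next.

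In KP1, TAS1440 raised Pdgfrb, Erbb2 and Ddr2. Pdgfrb was 0.03, 0.04 and 0.05 with DMSO, 3.91, 3.94 and 3.07 with TAS1440 and 0.10, 0.06 and 0.03 with GSI added, so that the TAS1440 libraries stood alone. It rose by 3.60 (SE 0.21, adjusted P = 3.50e-06) and fell by 3.58 with GSI (SE 0.21, adjusted P = 5.48e-06). Erbb2 went from 0.02, 0.05 and 0.11 to 1.67, 1.61 and 1.30 and back to 0.10, 0.06 and 0.10, a rise of 1.47 (SE 0.11, adjusted P = 1.34e-05) and a fall by 1.44 (SE 0.11, adjusted P = 1.85e-05). Both genes passed the filter only through the TAS1440 libraries. With no filter the adjusted P was 7.17e-05 for the rise and 0.000101 for the fall of Pdgfrb, and 8.50e-05 and 0.000121 for those of Erbb2. Ddr2 went from 1.02, 0.97 and 0.61 to 2.45, 2.14 and 1.90 and to 1.22, 0.77 and 1.40, a rise of 1.30 (SE 0.21, adjusted P = 0.00103) and a fall by 1.03 (SE 0.21, adjusted P = 0.00435). The fall of Ddr2 was not called without library 4 (-0.89) or library 8 (-0.85).

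Kit and Fgfr1 were called in KP1 only between TAS1440 with and without GSI. Kit was 1.04, 1.07 and 1.01 with DMSO, 0, 0.02 and 0.15 with TAS1440 and 1.76, 1.41 and 1.25 with GSI added. It rose by 1.41 with GSI (SE 0.13, adjusted P = 5.59e-05), while the change of -0.98 with TAS1440 (adjusted P = 0.000417) was just under the size required. Fgfr1 was 1.86, 1.94 and 1.49, then 2.85, 2.56 and 2.13, then 1.02, 1.06 and 0.90, and fell by 1.52 with GSI (SE 0.20, adjusted P = 0.000346). Pdgfra had 3.82, 0.65 and 2.53 with TAS1440 against 1.15, 1.21 and 0.52 with DMSO, a spread wider than the difference (adjusted P = 0.199). Egfr and Met were listed at 0.01 or lower with DMSO and had 0.70, 0.39 and 0.85, and 0.50, 0.75 and 0.55, with TAS1440, under the filter. No member was called between DMSO and TAS1440 with GSI, which was near the share of all genes, 1.21%. Fgfr1 had -0.77 and Kit 0.43 in that comparison, both without overlap. For GSI added to TAS1440, 5 of 7 were called, 1 higher and 4 lower, beside 16.5%. The comparisons of the drug with DMSO and with GSI share the TAS1440 libraries. TAS1440 thus raised Pdgfrb and Ddr2 in KP1, whereas in COR-L88 PDGFRB stayed at 0.01 or lower and DDR2 fell. The 2 tables were normalized separately, and this difference was not tested. The same log2 value also stood higher among all genes in KP1. A mean of 1.53 was at the 69.9th percentile for Erbb2 in KP1 with TAS1440. The same mean was at the 46.0th for IGF1R in uninduced H69 N1ICD cells. The filter and the size required were thus harder to reach in KP1, and its calls and fold changes are not comparable with those of the human lines.

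**Figure D5:**
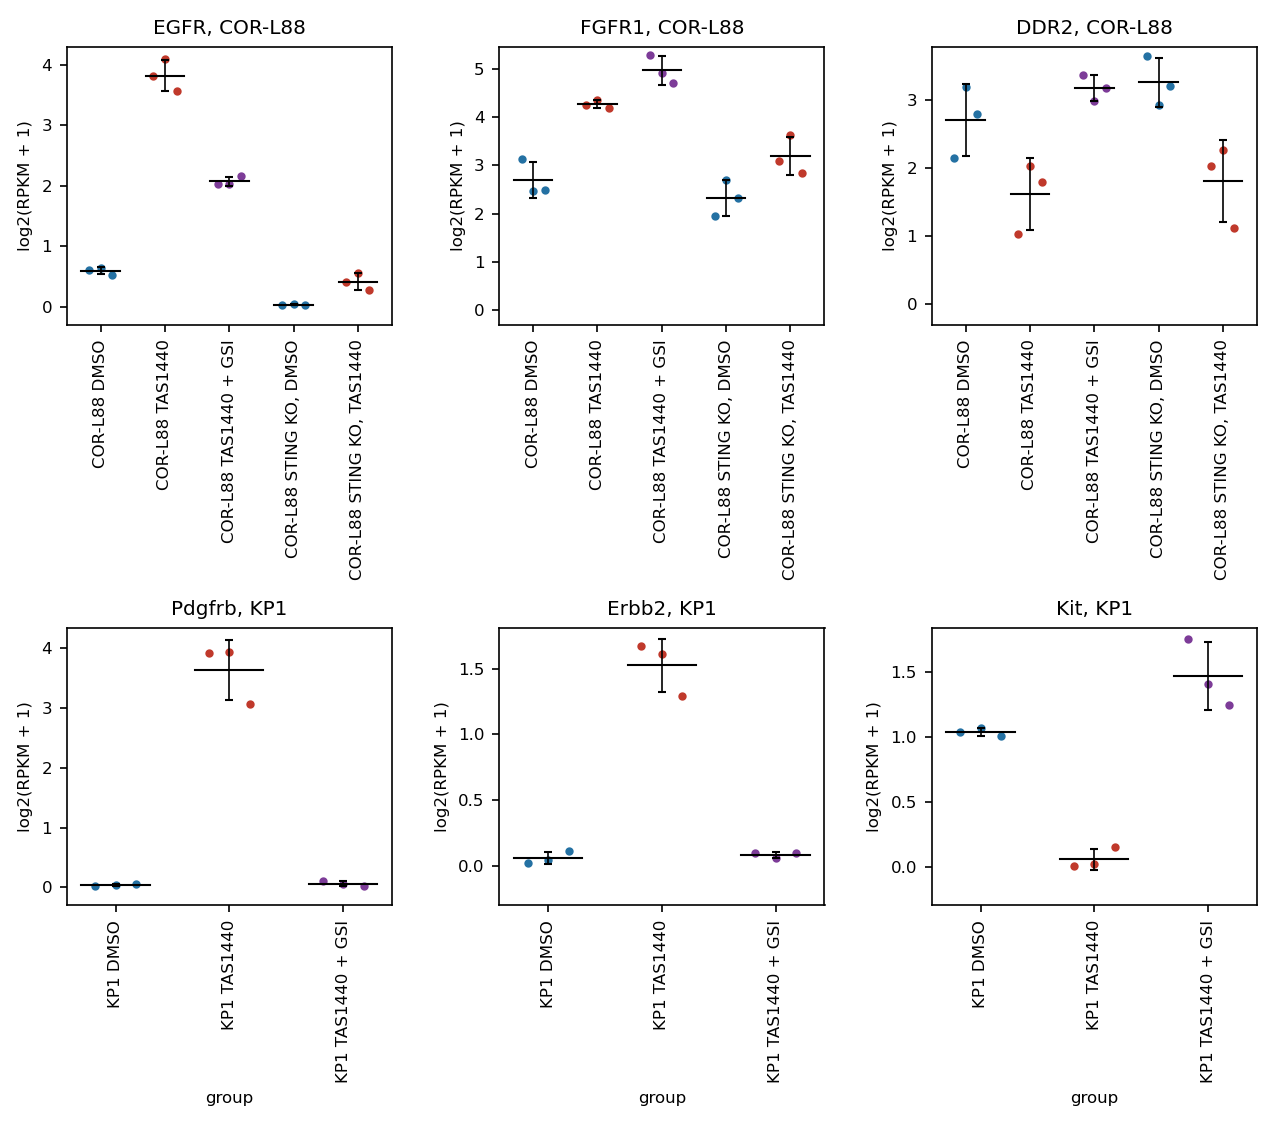
Log2(RPKM + 1) (vertical axes) of EGFR, FGFR1 and DDR2 in the 5 COR-L88 groups and of Pdgfrb, Erbb2 and Kit in the 3 KP1 groups (horizontal axes), with each library as a point and the mean and SD in black; red marks TAS1440, purple TAS1440 with GSI and blue DMSO. EGFR was lower with GSI than with TAS1440 alone, FGFR1 was not, and the KP1 genes moved back toward or past their DMSO values.

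The other comparisons set groups under the same treatment, or the responses themselves, against each other. In H82 with doxycycline, libraries labelled REST KO differed from N1ICD cells in 2 of 7, 1 higher and 1 lower, beside 17.6%, and those labelled STING KO in 0 of 7, beside 16.5%, with MET at 1.00, just short of the size required. Without doxycycline these were 1 of 7, lower, beside 6.24%, and 2 of 7, 1 higher and 1 lower, beside 14.4%, and the uninduced vector cells differed from parental H82 in 2 of 7, both lower, beside 6.41%. The difference in response between REST KO and N1ICD cells was called for 0 of 7, beside 12.9% (the nearest was MET with -0.84, adjusted P = 0.0443), and that between STING KO and N1ICD cells for 1 of 7, beside 7.12%. All of these share the N1ICD libraries.

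In H524, induced N1ICD and induced REST cells differed in 6 of 7, 3 higher and 3 lower, beside 23.8%. PDGFRB was higher by 6.75 (SE 0.18), DDR2 by 4.12 (SE 0.50) and IGF1R by 3.60 (SE 0.19) in N1ICD cells, whereas EGFR, KIT and FGFR1 were lower, by log2 differences of -1.65, -1.54 and -1.18. Before induction, N1ICD cells differed from parental H524 in 3 of 7, IGF1R higher and EGFR and FGFR1 lower, beside 12.1%, and uninduced REST cells in 0 of 7, beside 0.264%. KIT had uninduced means of 0.49 in N1ICD and 2.08 in REST cells, a difference that was not tested. The responses to N1ICD and REST differed for 2 of 7, both higher with N1ICD, beside 15.6%. In H69, 2 of 8 differed between vector and parental cells, both lower, beside 5.27%.

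In COR-L88, GSI added to TAS1440 changed 2 of 7, 1 higher and 1 lower, beside 14.7%, and TAS1440 with GSI differed from DMSO in 2 of 7, both higher, beside 9.02%. With TAS1440, libraries labelled STING KO differed in 3 of 7, all lower, beside 6.53%. For MET the groups overlapped, and its call was lost without library 13, 14 or 43. With DMSO, 0 of 7 were called, near the share of all genes, 1.47%, and the difference in response to TAS1440 was called for 1 of 7, beside 4.23%. Between lines, the response to N1ICD differed for 3 of 9 members, 2 higher and 1 lower, in H524 against H82, beside 19.7%, for 6 of 9, 3 higher and 3 lower, in H69 against H82, beside 43.1%, and for 2 of 9, 1 higher and 1 lower, in H69 against H524, beside 36.8%. The last share was below that of all genes.

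Genes of the ligands and of the steps after the receptors were counted by list. The share of all genes called in either direction was 27.1% in H82, 18.6% in H524 and 41.8% in H69 with N1ICD, and 22.8% in COR-L88 and 18.8% in KP1 with TAS1440. In H82 with N1ICD all 4 PDGF ligand genes were called higher, among them PDGFD with 3.50, PDGFB with 2.33 and PDGFA with 2.30, and the median of the list was 2.31, beside 0.00 over all genes. In H524, 2 of 3 tested were higher, PDGFA with 4.80 and PDGFB with 3.83, and in H69, 3 of 4 were higher and 1 lower, PDGFA with 4.46, PDGFC with 1.87 and PDGFD with -3.68. PDGFB and PDGFRB were therefore both called higher in all 3 N1ICD lines, PDGFB with 1.65 in H69. In COR-L88 with TAS1440, 3 of 4 were higher, where PDGFRB was listed at 0.01 or lower.

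Of the 6 fibrillar collagen genes, whose products bind DDR2, 5 of 5 tested were called higher in H82, 5 of 6 in H524, and 4 higher and 1 lower of 6 in H69. COL3A1 rose by 7.12, 11.76 and 12.91 and COL1A1 by 4.37, 4.42 and 10.10 in these lines, while COL2A1 changed by -8.01 in H69. The medians were 2.42, 2.94 and 7.04, beside 0.00, -0.02 and 0.08 over all genes.

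EGFR ligands rose in COR-L88. With TAS1440 all 4 tested of 7 were called higher, AREG with 3.08, TGFA with 2.66 and BTC with 2.15 first, and with GSI added all 4 were called lower, AREG with -2.91. In COR-L88 labelled STING KO all 4 were likewise called higher with TAS1440, at a median of 1.58, where EGFR had 0.38 and was not called. KITLG, the KIT ligand, rose by 2.51 in H82, 2.26 in H524 and 1.74 in COR-L88 with TAS1440, and had -0.96 in H69, the line in which KIT fell. HBEGF rose by 3.32 in H82 and 4.21 in H69, and Hbegf by 2.70 in KP1.

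IGFBP7, an IGF-binding protein, rose by 6.89 in H82, 6.89 in H524 and 7.57 in H69, and 6 of 8, 5 of 8 and 3 of 8 tested genes of IGF ligands and binding proteins were called higher. IGF2 rose by 5.68 in H524 and had -3.97 in H69. FGF ligands were mixed, with 4 higher and 2 lower of 7 in H82, 0 of 5 in H524 and 1 higher and 5 lower of 10 in H69, where FGF14 had -6.55. In each of the H82 sets with a KO label, 1 FGF ligand was higher and 1 lower of 7. In KP1 the only FGF ligand tested, Fgf7, rose by 6.71 with TAS1440. Neuregulins were called in H82, where NRG2 had -1.45, and in COR-L88, where NRG1 had 1.07, and 0 of 2 in H524, where the EGFR ligand tested was not called either. Of the MET ligand and its activators, PLAU rose by 3.16 in H82, 2.15 in H69 and 3.73 in COR-L88, and ST14 by 3.30 in H82, against -4.95 in H69.

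Downstream, 11 of 13 tested MAPK feedback and target genes were called higher in H82 with N1ICD and none lower, and likewise 11 of 13 in COR-L88 with TAS1440. In COR-L88 labelled STING KO, 10 of 13 were higher with TAS1440 and none lower. In H524, 6 of 13 were higher, and in H69, 4 were higher and 4 lower of 12. EGR1 rose by 5.78, 5.43 and 2.97 in H82, H524 and H69, ETV4 by 5.72 and ETV5 by 5.64 in H82, and FOSL1 by 5.92 in H69 and 5.49 in COR-L88. SPRY1, a feedback inhibitor, had -3.29 in H69. The list medians were 1.87, 1.94, 0.51 and 1.71 in H82, H524, H69 and COR-L88. In KP1, 4 of 12 were higher, Ccnd1 with 4.31, Egr1 with 4.23 and Spry1 with 3.17. These are RNA levels and measure neither ligand nor receptor activity.

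Of the adaptors, 3 of 17 were called higher with N1ICD in H82 and 2 of 17 in H524, both smaller shares than that of all genes, and 6 were higher and 4 lower of 17 in H69. SHC1 rose in all 3 lines, by 1.08, 2.71 and 2.79, while SHC2 rose by 2.92 and 4.45 in H82 and H524 and had -2.91 in H69. Of the negative regulators, ERRFI1, an inhibitor of EGFR, rose by 1.91, 1.77 and 2.29 in the 3 lines and by 1.25 in COR-L88 with TAS1440. SOCS3 rose by 2.96, 1.98, 1.12 and 2.88 in the same order. In these lines 2 of 11, 4 of 11, 3 of 11 (1 lower) and 5 of 11 negative regulators were called higher.

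Among related receptor kinases, KDR rose by 4.39 in H82 and 2.73 in COR-L88, FLT1 by 2.60 in H524 and FGFR3 by 2.66 in COR-L88, while ALK had -1.78 in H82 and -2.59 in H69. The counts were 1 higher and 3 lower of 9 in H82, 1 and 1 of 7 in H524, 4 and 4 of 10 in H69 and 3 and 1 of 8 in COR-L88. Of the Eph receptors, EPHA2 rose by 1.84 in H82, 3.81 in H69 and 5.69 in COR-L88, and EPHA3 by 3.64 in H82 and 10.37 in H69. In H69, 4 Eph receptors were called higher and 5 lower of 10.

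Some markers of other cell types were near 0, and others were not. PTPRC, the pan-leukocyte marker, was at most 0.38, CD3E 0.14, LYZ 0.34, CDH5 0.24 and VWF 0.49 in any human library, whereas CD14 reached 4.88 in induced H69 and CLDN5 3.16 in COR-L88 labelled STING KO with DMSO. The leukocyte sum (5 genes) ranged from 0.65 to 1.49 without and from 0.98 to 2.20 with doxycycline in H82 N1ICD cells, from 2.76 to 4.09 and from 3.91 to 4.33 in H524, and from 3.05 to 3.57 and from 4.75 to 4.88 in H69. CD14, the only leukocyte marker tested, was called higher in H69, by 1.51, and in H82 labelled REST KO, by 1.69, and not in the other responses of H82, H524 or COR-L88. The endothelial sum (3 genes with a row of 4) was at most 0.11 in induced H82, 0.17 in induced H524 and 0.47 in induced H69 N1ICD cells, against up to 0.036, 0.84 and 2.17 in the uninduced cells, 2.80 in parental H69 and 3.17 in COR-L88 labelled STING KO with DMSO. In KP1 the leukocyte sum (2 genes with a row of 5) was 0 with DMSO and 1.22 to 1.41 with TAS1440, where Cd14 rose by 1.28, and its part in the KP1 results was not tested. HBA1, an erythroid marker, reached 7.57 in uninduced H524 N1ICD cells. The single erythroid marker tested was called lower in H82 and H524, with -2.05 and -1.32, and the single endothelial one in H69 and COR-L88, with -1.77 and -1.41. Neuroendocrine markers were called lower in 7 of 7 tested in H82, 7 of 8 in H524 (1 was higher), 7 of 8 in H69, 7 of 8 in COR-L88 with TAS1440 and 6 of 6 in KP1. Their sum was 9.52 to 9.71 with DMSO, 6.26 to 6.83 with TAS1440 and 8.36 to 8.59 with GSI added in COR-L88, and 9.22 to 9.35, 0.61 to 6.01 and 8.92 to 9.25 in KP1. The part of these markers in the results was not tested.

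Over the 20 human group means, the genes most like each member were listed among 9410 others whose means ranged over at least 2. The closest to PDGFRB was the receptor kinase AXL (Pearson r = 0.977), then GPR124 and ALPK2 (both 0.966), and the closest to DDR2 were MYH9 (0.940), SLIT3 (0.921) and ITGA5 (0.896). KIT was most like HS3ST1 (0.978), OVOL2 (0.971) and MBP (0.969), ERBB3 like CLSTN1 (0.932), KLC3 (0.926) and INADL (0.919), and MET like AP1M2 (0.900), its relative MST1R (0.899) and DCDC2 (0.895). EGFR was most like LPAR1 (0.854), GALNT5 (0.832) and ULBP2 (0.812), and FGFR1 like TMSB4X (0.818), TES (0.817) and DDX60 (0.802). For IGF1R, TTC23 (0.884) and HSP90B2P (0.876), the neighbours named above, followed LINC00861 (0.887). Among pairs of these 8 members, PDGFRB and DDR2 had r = 0.844, KIT and MET 0.772, and ERBB3 and DDR2 -0.772. The groups share cell lines and control conditions, so these values describe the groups only.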

How the data were processed

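RNA-Seq values were taken from 2 tables that the authors deposited as log2 values of TMM-scaled RPKM, 1 for the 60 human libraries and 1 for the 9 KP1 libraries, which were normalized separately. The methods do not state a pseudocount; 1 was inferred from the lowest value in the tables, exactly 0. The submitters' processing notes list Cutadapt, STAR, RSEM, edgeR, hg19 and mm10, with versions and annotation not given in the sources used here. Groups followed the sample titles.

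Groups were compared with limma 3.58.1 (R 4.3.3), with 1 mean per group of a cell line and a variance trend, over genes that reached a log2 value of 1 in 3 or more libraries of that line. Two-sided P values were adjusted over every gene tested (Benjamini-Hochberg). Responses between lines were compared in 1 fit of the 60 human libraries. The fits were tested on simulated data. Members under the filter were not tested. Without read counts, no counting intervals are given. Libraries are numbered as in the titles.

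Members and lists were chosen with earlier results of these data known. Genes named are the 10 members, at most 3 genes with the largest called change of each list and response (with their values in other comparisons), NOTCH1, REST and the 3 genes most like each member, plus the neighbours and targeted genes stated. Marker sums were formed on the RPKM scale and are given as log2(sum + 1). Alternatives were a pseudocount of 0.1, quantile normalization, no filter, only the compared groups, and leaving out each library in turn. Tables were handled with Python 3.11.15, pandas 2.3.3 and numpy 2.4.6, and figures drawn with matplotlib 3.10.9. Protein sequences were not used here.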

Additional observations from a re-analysis of the deposited data

Results flagged for a closer look

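In each result below, the response of a member differed between cell lines or genotypes by a test of the difference itself (limma, values on the log2 scale). The response of MET to N1ICD in H82 was larger by 1.08 in cells labelled STING KO (SE 0.28, adjusted P = 0.0197). In H524, the response to N1ICD exceeded that to REST by 6.20 for PDGFRB and 3.78 for DDR2. PDGFRB passed the filter in H524 only through the induced N1ICD libraries. The response of EGFR to TAS1440 in COR-L88 labelled STING KO differed by -2.85 from that without the label. EGFR passed the filter in this line only through libraries without the label that received TAS1440. Its baseline with the label was near 0, where this scale understates changes.

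Between the responses of H524 and H82 to N1ICD, MET differed by -1.43, PDGFRB by 1.42 (SE 0.29, adjusted P = 0.00014) and DDR2 by 2.69 (SE 0.64, adjusted P = 0.000889). Between H69 and H82, MET differed by -2.36, FGFR1 by -1.41 (SE 0.45, adjusted P = 0.00648), PDGFRB by 1.23 (SE 0.29, adjusted P = 0.000344), KIT by -4.28, IGF1R by 2.18 and DDR2 by 3.35 (SE 0.64, adjusted P = 1.67e-05). Without library 8 the PDGFRB difference was 0.96 and was not called. Between H69 and H524, KIT differed by -3.66 and IGF1R by 1.99. The low uninduced level of KIT in H82 and H524 left no room there for a fall like that in H69. The H82 and H524 uninduced libraries enter more than 1 of these differences. No group had more than 3 libraries, so single libraries were not tested for distance from their group.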

How the results depend on the processing

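Of the 74 calls of members, 59 held in every alternative that tested them, and none reversed. With a pseudocount of 0.1 the members called were 7 rather than 4 for N1ICD in H69, 5 rather than 3 for TAS1440 in KP1, 3 rather than 1 for TAS1440 in COR-L88 labelled STING KO, 5 rather than 2 for the response of H69 against H524, 2 rather than 0 between induced H82 labelled STING KO and N1ICD cells, 1 rather than 0 for the STING KO label in COR-L88 with DMSO, and 0 rather than 1 for the response with the STING KO label in H82. Quantile normalization gave 1 rather than 0 between induced H82 labelled STING KO and N1ICD cells and 1 rather than 3 for the STING KO label in COR-L88 with TAS1440. With no filter there was 1 rather than 2 for the H82 vector and 0 rather than 1 for REST in H524. With only the compared groups there was 1 rather than 2 for the H82 vector and 0 rather than 1 for the REST KO label in uninduced H82.

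Leaving out 1 library gave 1 to 2 members for the H82 vector, 0 to 1 and 1 to 3 for the REST KO and STING KO labels in uninduced H82, 1 to 2 and 0 to 1 for these in induced H82, 0 to 2 and 0 to 1 for their differences in response, 0 to 1 for REST in H524, 1 to 3 for N1ICD against REST responses, 1 to 3 for TAS1440 in COR-L88 labelled STING KO, and 2 to 4 for H69 against H524. In KP1 it gave 1 to 3 for TAS1440 and 2 to 5 for GSI, with the lowest of both without library 4. Without library 4, 5 or 6, Pdgfrb and Erbb2 reached a log2 value of 1 in fewer than 3 libraries and were not tested, as was PDGFRB in H524 and H69 without 1 induced library.

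Over all genes, calls were 891 for the H82 vector and 321 with only the compared groups, 1651 and 548 for the H524 N1ICD vector, 867 and 1311 (pseudocount 0.1) for the REST KO label in uninduced H82, 36 and 95 (pseudocount 0.1) or 19 (no filter) for the H524 REST vector, and 193 and 372 (pseudocount 0.1) or 113 (only the compared groups) for the STING KO label in COR-L88 with DMSO. No paired analysis was possible because the numbers in the titles run on through the series and no number recurs in the groups compared. The cause of these changes was not tested. Read counts were not used here, so counting error at low levels is unknown, and 3 libraries a group limit the precision.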

Other observations

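Some of the genes that TAS1440 raised in COR-L88 were lower when the γ-secretase inhibitor was added, with 4 of 4 EGFR ligands, 1 of 4 PDGF ligands and 1 of 8 related receptor kinases called lower. FOSL1 had a log2 fold change of -2.93 for TAS1440 with GSI against TAS1440 alone, EPHA2 -2.90, KDR -2.89, IGFBP7 -2.20, PLAU -2.10 and KITLG -1.90. All of these were called. NRG1, with -0.76, and FGFR1, with 0.70, were not called. The comparisons share the TAS1440 libraries.

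In KP1 with TAS1440, Epha2 rose by 3.19, Errfi1 by 1.62 and Shc1 by 1.28, while St14 had -2.60, Shc2 -1.35 and Socs3 -1.01. In COR-L88, SHC2 with 1.67 and SOCS3 with 2.88 were called higher with TAS1440. The tables were normalized separately, and the difference between the lines was not tested.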
